A study of Homo sapiens with 6 samples.

Results

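The 52 genes described here carry out DNA replication or control the entry into S phase. They were chosen by symbol, from their known roles, out of 56638 gene symbols in the count files. The rule uses no measured value, but the set was drawn up with earlier results of these data known. The set holds 15 genes of origin licensing, 6 of helicase activation, 20 of the replication fork, 4 of nucleotide supply and 7 regulators of the G1/S step. All 52 passed the filter on low counts that left 23074 genes, and all 52 had a mean of 10 CPM or more over the 6 libraries. CPM are counts per 1e+06 of a library's size, here scaled with TMM factors, which correct for a few genes taking a large share of a library.

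Replication starts at origins that are bound by the origin recognition complex (ORC). During G1 phase, CDC6 and CDT1 load the ring of MCM2 to MCM7 onto this DNA, and geminin (GMNN) blocks CDT1 once S phase has begun. Cyclin E with CDK2 and other kinases then bring CDC45 and the GINS complex to the ring, which makes it an active helicase. Polymerase alpha with primase lays primers, polymerases delta and epsilon extend them, RFC loads the sliding clamp PCNA, and ribonucleotide reductase supplies the deoxynucleotides. Many of these genes are known targets of the E2F transcription factors, which the RB proteins hold in check during G1.

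The study asked which genes respond when lncRNA-AF339830, a long non-coding RNA that it calls GLCC1, is depleted in colorectal cancer cells. RNA was sequenced from 6 libraries, 3 titled control siRNA and 3 titled lncRNA-AF339830 siRNA, of cells at passage 16-19 with no other treatment or genotype given. These are called the control libraries and the GLCC1 siRNA libraries below. The number that ends each title directly follows the word siRNA, and it was read as a replicate number. The study used different siRNAs against GLCC1, and whether the number names an siRNA was not tested. The sample labels name the line SW480 whereas the study's methods name DLD-1, both human colorectal cancer lines, and which it was, was not tested. The library names given with each sample carry NC for the libraries titled lncRNA-AF339830 siRNA and AF for those titled control, so every direction below would turn if the library names were right. The count files hold 0 rows named GLCC1 or AF339830, so the labels could not be checked on the target. Nothing in the labels says that the libraries of a group came from separate cultures, and the p-values therefore measure only the spread between these libraries.

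A control library held 15002165 to 19042516 counted read pairs and a GLCC1 siRNA library 11948790 to 18390975. Of the 9 colon epithelium markers, 6 were lower in the GLCC1 siRNA libraries and 0 higher, and their summed level was 5642 to 6177 CPM in the control libraries and 2262 to 2697 CPM in the GLCC1 siRNA libraries. In the means of the control and GLCC1 siRNA libraries, KRT8 was at 3584 and 1177 CPM, KRT19 at 881 and 347 CPM and KRT18 at 423 and 119.7 CPM, and these 3 keratins made up most of the sum and of its fall. EPCAM was at 319 and 258 CPM and VIL1, which was not called, at 205 and 237 CPM without overlap, while KRT20, a marker of differentiated colon cells, was at 0.644 and 0.364 CPM. In the same order, the summed levels of the other markers were 16.1 to 19.9 and 10.7 to 13.3 CPM for 5 fibroblast markers, 3.02 to 4.10 and 3.26 to 5.42 CPM for 5 leukocyte markers and 0.542 to 1.03 and 0.318 to 1.40 CPM for 4 endothelial markers. Of these only COL1A1 was called, lower, and PTPRC, PECAM1, CDH5, KDR, DCN and COL1A2 had 0 counts in every library. All 12 interferon response genes were higher in the GLCC1 siRNA libraries, with summed levels of 1217 to 1460 CPM in the control libraries and 3779 to 4916 CPM in the others. The share of read pairs on no annotated gene also moved with the groups, from 9.82% to 10.1% in the control libraries and from 10.96% to 12.7% in the GLCC1 siRNA libraries. The part of these shifts in the results on replication genes was not tested.

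The replication genes were more often higher than lower in the GLCC1 siRNA libraries. With an adjusted p under 0.05 in the quasi-likelihood test of edgeR, adjusted over all genes by the Benjamini-Hochberg method, 19 of the 52 rose (36.5%), 4 fell (7.69%) and 29 were not called. Among all 23074 genes, 14.9% rose and 16.8% fell, and among the 10378 genes whose mean reached 10 CPM, 20.1% rose and 29.8% fell. The median log2 fold change was 0.18 over the 52 genes, with a range of -0.44 to 1.22, against 0.03 over all genes and -0.07 over those with at least 10 CPM. For 25 of the 52 genes every GLCC1 siRNA library lay above every control library, and for 6 every one lay below, whereas 22.2% and 24.1% of all genes did so. Among the 10378 genes of at least 10 CPM, 2712 lay above and 3924 below in this way. Summed over the 52 genes, the level was 5166, 5035 and 5209 CPM in the control libraries and 6021, 6033 and 6013 CPM in the GLCC1 siRNA libraries, without overlap. In such bulk samples, a change in the number of cells in S phase and a change in RNA per cell cannot be told apart. Scaling by library totals alone moved the median of all genes to 0.15, gave 29 genes of the set higher and 3 lower, and made 62.9% of the calls among all genes higher calls, against 47.0% with TMM.

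**Figure D1:**
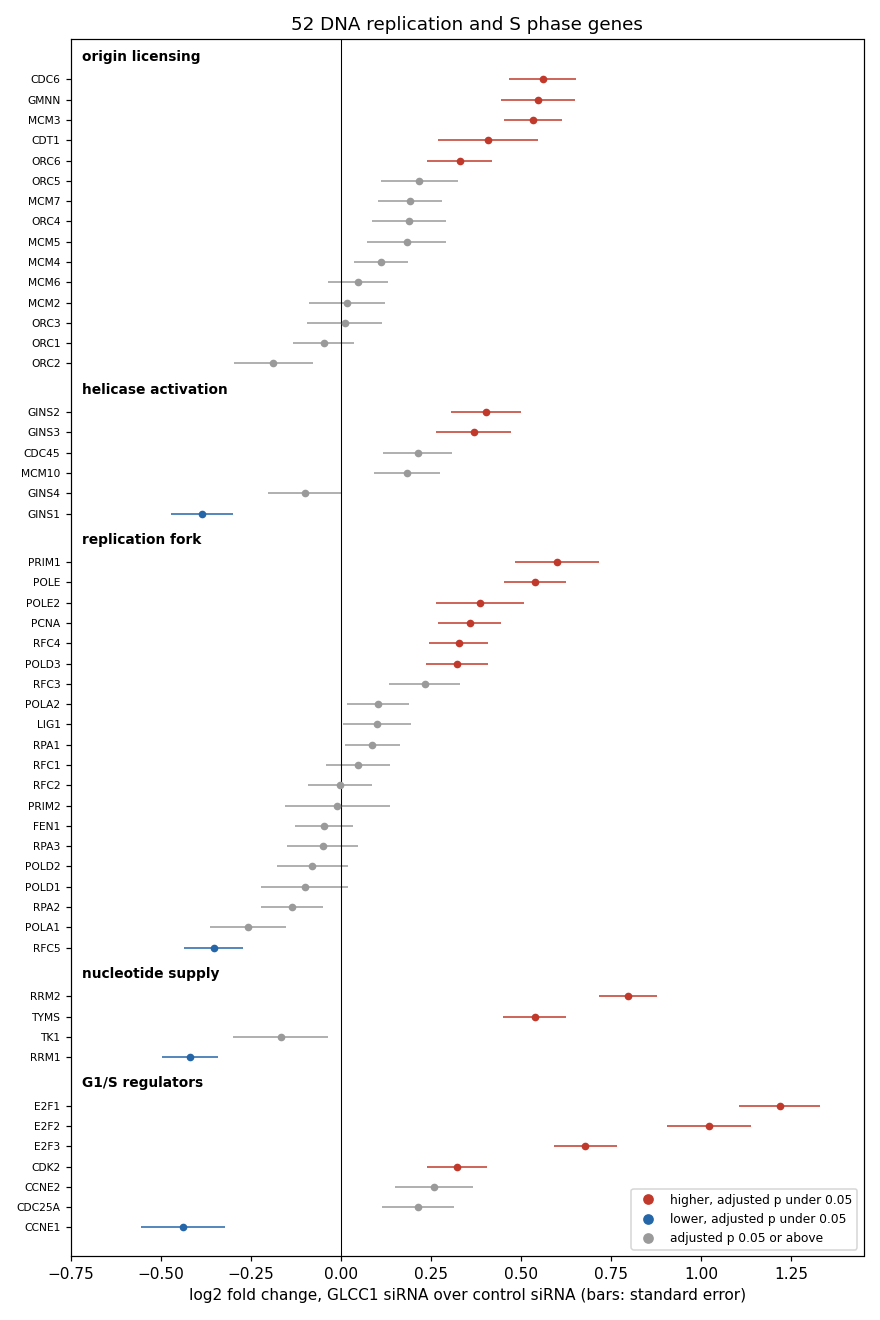
Log2 fold change of each of the 52 genes (GLCC1 siRNA over control siRNA, x axis), ordered within 5 role groups, with bars for the standard error derived from the edgeR test and colours for the call at an adjusted p under 0.05. E2F1 and E2F2 stand farthest to the right at 1.22 and 1.02, and CCNE1 and RRM1 farthest to the left at -0.44 and -0.42.

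Among the 7 G1/S regulators, 4 rose (57.1%), 1 fell (14.3%) and 2 were not called, against 20.1% and 29.8% of all genes of at least 10 CPM. Their median log2 fold change was 0.32, and E2F1 and E2F2 had the largest log2 fold changes of all 52 genes. E2F1, E2F2 and E2F3 are the activators of the E2F family, which switch on genes needed for S phase. E2F1 was at 22.1, 25.7 and 22.8 CPM in the control libraries and 58.8, 47.0 and 58.2 CPM in the GLCC1 siRNA libraries (log2 fold change 1.22, standard error 0.11, adjusted p = 3.2e-06 from edgeR). E2F2 was at 19.7, 21.9 and 21.3 CPM in the control libraries and 44.04, 35.6 and 47.5 CPM in the GLCC1 siRNA libraries (log2 fold change 1.02, standard error 0.12, adjusted p = 2.0e-05 from edgeR). E2F3 was at 61.1, 57.3 and 54.4 CPM in the control libraries and 92.3, 95.3 and 89.0 CPM in the GLCC1 siRNA libraries (log2 fold change 0.68, standard error 0.09, adjusted p = 4.9e-05 from edgeR). For each of the 3 genes, every GLCC1 siRNA library was above every control library, and the folds were 2.33, 2.03 and 1.60. Their summed level went from 102 ± 3.27 CPM (SD, n = 3) to 189 ± 9.85 CPM. Per kilobase of the canonical transcript, the control levels were 8.74 CPM for E2F1, 4.03 CPM for E2F2 and 11.4 CPM for E2F3, so E2F3 was the most abundant in the control libraries. In the GLCC1 siRNA libraries E2F1 was at 20.3 ± 2.48 CPM per kilobase and E2F3 at 18.3 ± 0.624, which do not differ beyond their spread. These genes lie, on GRCh37, at chr20:32263283-32274191 (E2F1, minus strand), chr1:23832930-23857725 (E2F2, minus strand) and chr6:20402110-20493945 (E2F3, plus strand), each with 7 exons in its canonical transcript.

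**Figure D2:**
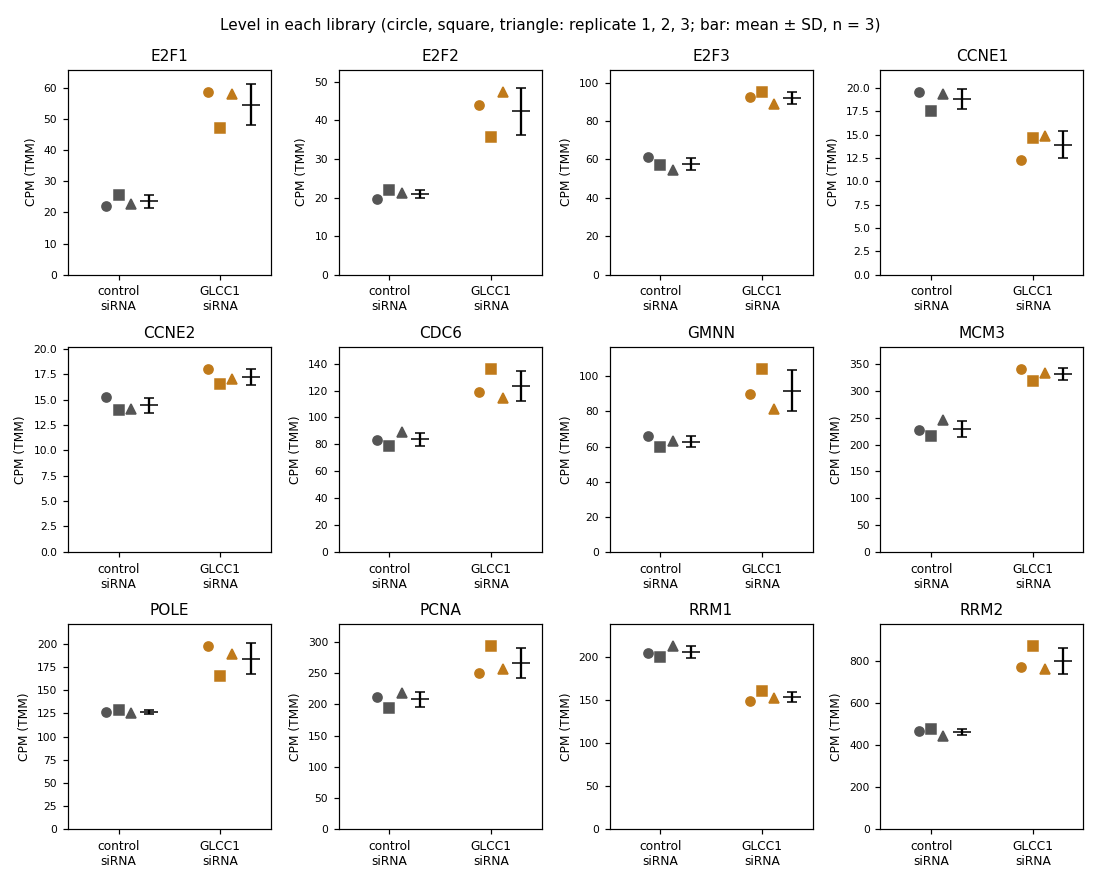
Level in CPM (y axis, from 0) of 12 genes in each library, with circles, squares and triangles for replicates 1, 2 and 3 and a bar for the mean ± SD of 3 libraries. The groups do not overlap in any panel: CCNE1 and RRM1 are lower in the GLCC1 siRNA libraries, the other genes higher, and the square of replicate 2 often lies away from the other 2.

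The E2F genes are known to respond to their own products, and letters of the E2F site were therefore looked for in the promoters. The 4 spellings TTTCCCGC, TTTGGCGC, TTTCGCGC and TTTGCCGC were searched on both strands, from 250 bases before to 50 bases after the annotated start, in the RefSeq promoters of GRCh38.p14. Overlapping spellings on the 2 strands were counted as 2 matches. The promoters of E2F1, E2F2 and E2F3 are shown because this family held the largest changes, those of CDC6 and MCM3 as licensing genes that rose, and that of RRM2 because it rose strongly without these letters. Capitals mark these 4 spellings, on either strand. Other spellings of the site were not searched, so lower case does not show that they are absent.
E2F1, chr20:33686336-33686635, minus strand: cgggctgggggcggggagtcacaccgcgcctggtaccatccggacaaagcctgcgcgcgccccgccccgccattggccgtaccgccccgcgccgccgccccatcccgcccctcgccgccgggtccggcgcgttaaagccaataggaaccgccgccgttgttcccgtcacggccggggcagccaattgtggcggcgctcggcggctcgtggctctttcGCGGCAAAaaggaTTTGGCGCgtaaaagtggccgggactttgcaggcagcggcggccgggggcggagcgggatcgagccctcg
E2F2, chr1:23531184-23531483, minus strand: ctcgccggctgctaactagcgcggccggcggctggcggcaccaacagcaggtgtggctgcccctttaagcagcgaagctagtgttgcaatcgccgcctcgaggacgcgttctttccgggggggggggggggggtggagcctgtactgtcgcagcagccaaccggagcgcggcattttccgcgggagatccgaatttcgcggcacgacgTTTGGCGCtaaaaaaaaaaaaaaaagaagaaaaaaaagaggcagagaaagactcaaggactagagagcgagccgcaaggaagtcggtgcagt
E2F3, chr6:20401629-20401928, plus strand: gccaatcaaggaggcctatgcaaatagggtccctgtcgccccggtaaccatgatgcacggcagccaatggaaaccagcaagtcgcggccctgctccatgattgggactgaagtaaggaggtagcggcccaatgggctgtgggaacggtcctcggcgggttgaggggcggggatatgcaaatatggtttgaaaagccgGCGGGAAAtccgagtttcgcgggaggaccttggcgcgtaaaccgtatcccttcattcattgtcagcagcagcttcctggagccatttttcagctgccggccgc
MCM3, chr6:52284693-52284992, minus strand: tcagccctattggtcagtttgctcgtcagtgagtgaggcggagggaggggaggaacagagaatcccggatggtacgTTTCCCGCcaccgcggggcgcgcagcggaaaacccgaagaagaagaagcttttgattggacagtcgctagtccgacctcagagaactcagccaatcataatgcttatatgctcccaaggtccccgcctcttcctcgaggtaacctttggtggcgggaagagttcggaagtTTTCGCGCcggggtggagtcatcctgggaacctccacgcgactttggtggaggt
CDC6, chr17:40287629-40287928, plus strand: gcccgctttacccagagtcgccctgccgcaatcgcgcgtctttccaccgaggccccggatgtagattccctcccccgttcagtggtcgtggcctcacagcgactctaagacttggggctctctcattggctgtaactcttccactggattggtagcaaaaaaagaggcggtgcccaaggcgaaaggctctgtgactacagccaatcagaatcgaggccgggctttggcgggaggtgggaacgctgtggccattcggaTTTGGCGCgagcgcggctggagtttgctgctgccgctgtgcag
RRM2, chr2:10122489-10122788, plus strand: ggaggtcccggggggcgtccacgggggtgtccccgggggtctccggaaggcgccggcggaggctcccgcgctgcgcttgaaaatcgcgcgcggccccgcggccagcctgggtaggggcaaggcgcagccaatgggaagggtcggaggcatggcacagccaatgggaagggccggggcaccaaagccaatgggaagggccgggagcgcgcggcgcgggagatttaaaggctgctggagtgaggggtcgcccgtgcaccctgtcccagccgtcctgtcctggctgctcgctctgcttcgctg

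Relative to the annotated start, the letters stood at -33 and -20 in E2F1, at -42 in E2F2, at -53 in E2F3, at -174 and -4 in MCM3 and at 8 in CDC6. The 2 RefSeq promoters of RRM2 and the other RefSeq promoter of E2F3 held none of the 4 spellings, which says only that these letters are not in the windows. Across the set, 23 of the 44 genes with a promoter entry carried the letters (52.3%). Of all genes with an entry 1090 of 27305 did (3.99%), and of the tested ones 697 of 11513 (6.05%). Counted by promoter, the letters were in 23 of 56 in the set (41.1%) and in 1164 of all 35116 (3.31%). There were 30 matches in these 23 genes, and 24 of them lay within 100 bases of the start. The letters were in 13 of the 17 genes that rose (76.5%), in 1 of the 4 that fell (25.0%), which was GINS1, and in 9 of the 23 that were not called (39.1%). Among all genes with a promoter, they were in 156 of the 2090 that rose (7.46%) and 146 of the 2692 that fell (5.42%). The median of the log2 fold changes was 0.37 over the 23 genes with the letters and -0.0024 over the 21 without. Over all tested genes with a promoter, the medians were 0.0016 with and -0.03 without the letters. Genes with the letters that were not called include ORC3, MCM2, MCM6, MCM7, POLA1, POLA2, RFC3, LIG1 and CDC25A. The E-box CACGTG, the letters that MYC with MAX is known to bind, was in 7 of the 44 genes (15.9%) against 8.77% of all genes with a promoter and 11.9% of the tested ones. CCAAT, searched on both strands, was in 27 (61.4%), against 39.7% and 42.2%. Of the genes of the set that rose, 2 of 17 had an E-box (11.8%), against 235 of 2090 among all genes that rose (11.2%). An E-box was also in 5 of the 23 that were not called (21.7%). CCAAT was in 11 of the 17 that rose (64.7%), against 916 of 2090 (43.8%). A match is a run of letters and not a site shown to be bound. MCM4, MCM5, GINS4, POLD3, RPA2, RPA3, CCNE2 and CDK2 were not searched.

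The cyclin E genes, whose products activate CDK2 at the start of S phase, had log2 fold changes of opposite sign, and only CCNE1 passed the test. CCNE1 was at 19.6, 17.6 and 19.3 CPM in the control libraries and 12.2, 14.6 and 14.9 CPM in the GLCC1 siRNA libraries (log2 fold change -0.44, standard error 0.12, adjusted p = 0.011 from edgeR), without overlap. CCNE2 was at 15.3, 14.0 and 14.0 CPM in the control libraries and 18.0, 16.5 and 17.1 CPM in the GLCC1 siRNA libraries (log2 fold change 0.26, standard error 0.11, adjusted p = 0.088 from edgeR), also without overlap but not called. CCNE1 was not called without control replicate 1, control replicate 3 or GLCC1 siRNA replicate 1, where its log2 fold change was -0.41, -0.42 and -0.35, nor with library totals alone (-0.32). The log2 ratio of CCNE1 to CCNE2 was 0.36, 0.33 and 0.46 in the control libraries and -0.56, -0.18 and -0.20 in the GLCC1 siRNA libraries. In other words, CCNE1 had more counts than CCNE2 in every control library and fewer in every GLCC1 siRNA library. Per kilobase, CCNE1 went from 9.64 ± 0.565 to 7.12 ± 0.743 CPM and CCNE2 from 5.40 ± 0.276 to 6.44 ± 0.284 CPM, so that CCNE1 was the higher of the pair in the control libraries and the levels lay within their spread in the others. Of the exon bases of CCNE2, 57.1% are shared with INTS8 or ENSG00000272509. Reads there could be set aside or counted elsewhere, depending on the strand setting and annotation of the counting, which are not given. CDK2, their kinase partner, rose from 72.5 ± 2.71 to 90.5 ± 2.20 CPM (log2 fold change 0.32, adjusted p = 0.0087 from edgeR), but was not called without control replicate 2 or 3 (adjusted p up to 0.059). CDC25A, the phosphatase that activates CDK2, was at 45.4 ± 2.88 and 52.7 ± 5.16 CPM (adjusted p = 0.12), without overlap.

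The subunits of ribonucleotide reductase, the enzyme that turns ribonucleotides into deoxynucleotides, moved apart. RRM2, the small subunit whose level is known to follow the cell cycle, was at 465, 475 and 444 CPM in the control libraries and 772, 871 and 761 CPM in the GLCC1 siRNA libraries (log2 fold change 0.80, standard error 0.08, adjusted p = 6.8e-06 from edgeR). RRM1, the large subunit, was at 205, 200.2 and 213 CPM in the control libraries and 149, 160.3 and 153 CPM in the GLCC1 siRNA libraries (log2 fold change -0.42, standard error 0.08, adjusted p = 9.5e-04 from edgeR). Neither gene overlapped between the groups. The log2 ratio of RRM1 to RRM2 was -1.18, -1.25 and -1.06 in the control libraries and -2.37, -2.44 and -2.32 in the GLCC1 siRNA libraries, a difference of -1.21. Per kilobase, RRM2 went from 142 ± 4.77 to 246 ± 18.7 CPM and RRM1 from 65.6 ± 2.10 to 49.1 ± 1.77 CPM. In the control libraries, only PCNA was higher per kilobase among the 52 genes, and MCM7, at 137 ± 5.38 CPM per kilobase, did not differ from RRM2 beyond its spread, while RRM2 was the highest of the set in the GLCC1 siRNA libraries. Pseudogenes of RRM2 are annotated, and reads that map to more than 1 place could be lost from its count. TYMS, which makes thymidylate, was at 41.4, 39.3 and 40.6 CPM in the control libraries and 57.6, 60.5 and 57.8 CPM in the GLCC1 siRNA libraries (log2 fold change 0.54, standard error 0.09, adjusted p = 3.3e-04 from edgeR), without overlap. Of its exon bases, 66.5% are shared with ENOSF1 or TYMSOS. TK1, which salvages thymidine, was at 136, 151 and 150.3 CPM in the control libraries and 141, 97.0 and 150.4 CPM in the GLCC1 siRNA libraries (log2 fold change -0.17, standard error 0.13, adjusted p = 0.36 from edgeR), and replicate 2 of the GLCC1 siRNA libraries stood far below the other 2, which lay among the controls. RRM2 lies at chr2:10260825-10351851 and RRM1 at chr11:4115937-4160162 on GRCh37, both on the plus strand.

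Of the 15 origin licensing genes, 5 rose (33.3%), 0 fell and 10 were not called, with a median log2 fold change of 0.19. Among all genes of at least 10 CPM, 20.1% rose and 29.8% fell. The ATPase CDC6, which with CDT1 loads the MCM ring, was at 83.0, 79.0 and 88.8 CPM in the control libraries and 119, 136 and 115 CPM in the GLCC1 siRNA libraries (log2 fold change 0.56, standard error 0.09, adjusted p = 4.2e-04 from edgeR). CDT1 was at 49.8, 58.8 and 57.9 CPM in the control libraries and 80.8, 55.2 and 84.3 CPM in the GLCC1 siRNA libraries (log2 fold change 0.41, standard error 0.14, adjusted p = 0.038 from edgeR). The groups overlap for CDT1, since replicate 2 of the GLCC1 siRNA libraries lay among the controls while the other 2 were above them. With any other single library left out CDT1 was not called, at log2 fold changes of 0.30 to 0.45. GMNN, the inhibitor of CDT1, was at 66.0, 59.5 and 63.1 CPM in the control libraries and 90.1, 104 and 81.3 CPM in the GLCC1 siRNA libraries (log2 fold change 0.55, standard error 0.10, adjusted p = 0.0010 from edgeR), without overlap. The log2 ratio of CDT1 to GMNN was -0.41, -0.02 and -0.12 in the control libraries and -0.16, -0.92 and 0.05 in the GLCC1 siRNA libraries, which overlap (difference -0.16, exact permutation test p = 0.80). Without replicate 2 of the GLCC1 siRNA libraries, this difference was 0.13.

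Of the 6 subunits of the ring, 1 passed the test, as higher (16.7%), a share near the 20.1% higher among all genes of at least 10 CPM. MCM3 was at 226, 216 and 245 CPM in the control libraries and 341, 319 and 332 CPM in the GLCC1 siRNA libraries (log2 fold change 0.53, standard error 0.08, adjusted p = 1.9e-04 from edgeR), with each GLCC1 siRNA library above each control. The other 5 subunits were not called, with log2 fold changes from 0.02 for MCM2 to 0.19 for MCM7. Their lowest adjusted p, that of MCM7, was 0.12. Summed over the 6 subunits, the level went from 1434 ± 52.7 to 1637 ± 97.0 CPM (n = 3). Within this sum MCM3 went from 229 to 331 CPM, and each of the other 5 moved less. Per kilobase, the control levels of the subunits ran from 33.3 CPM for MCM5 through 47.2 for MCM6, 55.9 for MCM2, 74.6 for MCM3 and 94.3 for MCM4 to 137 for MCM7. MCM6 and MCM2 are the closest neighbours in this order, at 47.2 ± 3.11 and 55.9 ± 2.53 CPM per kilobase. In the GLCC1 siRNA libraries, MCM3 was at 108 ± 3.59 and MCM4 at 102 ± 1.97 CPM per kilobase. In the origin recognition complex, ORC6 rose from 48.7 ± 2.75 to 61.2 ± 3.28 CPM (log2 fold change 0.33, adjusted p = 0.013 from edgeR, and up to 0.085 without control replicate 2 or 3), and the other 5 subunits were not called, at log2 fold changes from -0.19 for ORC2 to 0.22 for ORC5. The 6 ORC genes summed to 307 ± 11.6 and 325 ± 31.3 CPM, which overlap within their SD.

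**Figure D3:**
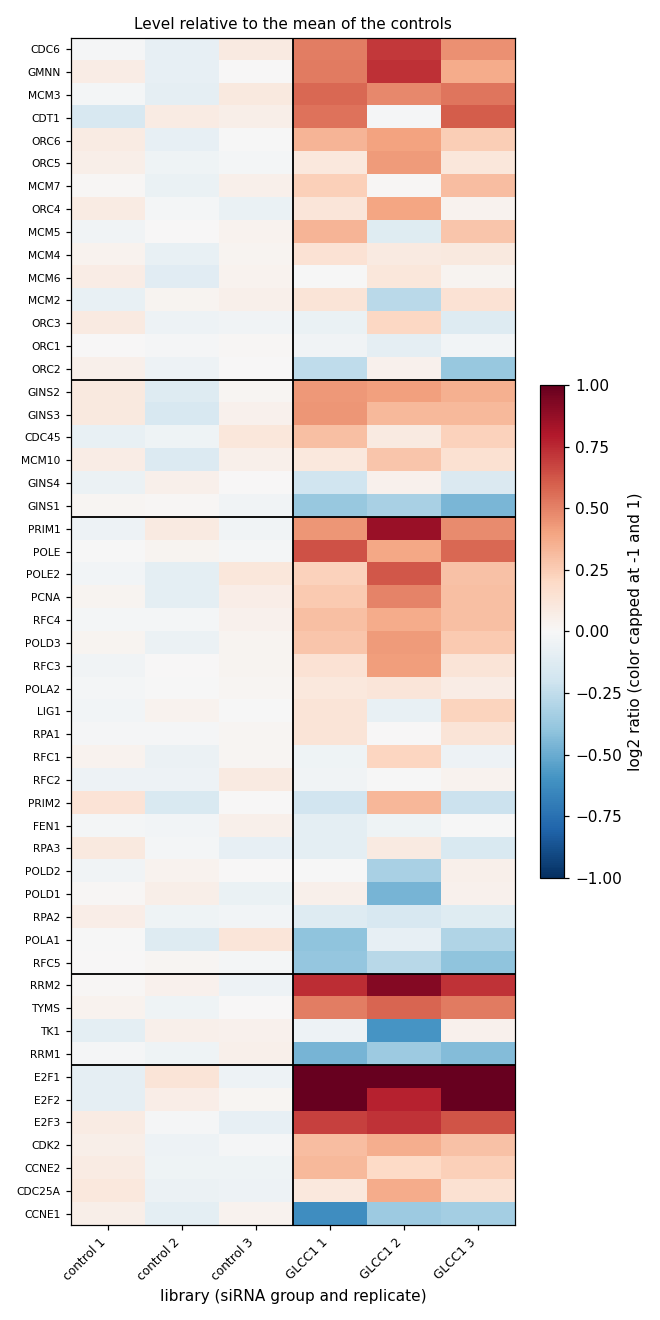
Log2 ratio of each gene's level in each library (columns) to its mean in the control libraries, for the 52 genes (rows) in 5 role groups set apart by black lines; colours are capped at -1 and 1. The rows of E2F1, E2F2, E2F3 and RRM2 are red in all 3 GLCC1 siRNA libraries and those of RRM1, RFC5 and GINS1 blue, while CDT1, TK1 and POLD1 show replicate 2 apart from the other 2.

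The helicase activators split within the GINS complex, which holds 4 subunits that are known to work together. GINS1 was at 64.6, 64.3 and 62.3 CPM in the control libraries and 48.9, 51.0 and 46.4 CPM in the GLCC1 siRNA libraries (log2 fold change -0.39, standard error 0.09, adjusted p = 0.0036 from edgeR). GINS2 was at 30.03, 25.7 and 28.5 CPM in the control libraries and 38.0, 37.4 and 35.9 CPM in the GLCC1 siRNA libraries (log2 fold change 0.40, standard error 0.10, adjusted p = 0.0060 from edgeR). GINS3 was at 25.8, 21.6 and 24.9 CPM in the control libraries and 32.7, 30.1 and 30.3 CPM in the GLCC1 siRNA libraries (log2 fold change 0.37, standard error 0.10, adjusted p = 0.015 from edgeR). Thus GINS1 fell while GINS2 and GINS3 rose, each without overlap in the 6 libraries, and GINS4 was not called (log2 fold change -0.10, adjusted p = 0.49). GINS2 was not called without control replicate 2 (0.34), and GINS3 was not called without control replicate 2 (0.29), control replicate 3 (0.39) or GLCC1 siRNA replicate 1 (0.33). Per kilobase, GINS1 was at 19.2 ± 0.368 CPM in the control libraries, above GINS3 at 10.96 ± 1.01 and GINS2 at 10.7 ± 0.832, which do not differ beyond their spread, and GINS4 at 7.46 ± 0.293. In the GLCC1 siRNA libraries the first 3 lay at 14.7 ± 0.701, 14.1 ± 0.666 and 14.1 ± 0.409 CPM per kilobase, within their spread. CDC45, which joins GINS at the ring, had a log2 fold change of 0.21 (adjusted p = 0.11). MCM10, which helps to start the helicase, had 0.18 (adjusted p = 0.15).

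Of the 20 genes of the replication fork, 6 rose (30%), 1 fell (5%) and 13 were not called, against 20.1% and 29.8% of all genes of at least 10 CPM. Their median was 0.07 on the log2 scale. In the complex of polymerase alpha and primase, only the catalytic primase subunit PRIM1 was called. PRIM1 was at 34.8, 38.4 and 35.2 CPM in the control libraries and 49.0, 65.8 and 50.05 CPM in the GLCC1 siRNA libraries (log2 fold change 0.60, standard error 0.12, adjusted p = 0.0015 from edgeR), without overlap. Its partner PRIM2 was at 22.8, 18.6 and 20.8 CPM in the control libraries and 18.1, 26.2 and 17.9 CPM in the GLCC1 siRNA libraries (log2 fold change -0.01, standard error 0.15, adjusted p = 0.97 from edgeR), where replicate 2 of the GLCC1 siRNA libraries was above and the other 2 below the controls. The log2 ratio of PRIM1 to PRIM2 was 0.61, 1.04 and 0.76 in the control libraries and 1.43, 1.33 and 1.48 in the GLCC1 siRNA libraries, without overlap. POLA1, the catalytic subunit of polymerase alpha, was at 63.9, 58.7 and 69.8 CPM in the control libraries and 48.4, 60.7 and 52.01 CPM in the GLCC1 siRNA libraries (log2 fold change -0.26, standard error 0.11, adjusted p = 0.080 from edgeR), and the groups overlap. POLA2, its accessory subunit, was at 43.3, 43.7 and 44.3 CPM in the control libraries and 47.2, 47.7 and 46.0 CPM in the GLCC1 siRNA libraries (log2 fold change 0.10, standard error 0.09, adjusted p = 0.40 from edgeR), without overlap but at a small difference. The shares of exon bases that overlap other genes were 37.5% for PRIM1, 54.0% for PRIM2 and 55.8% for POLA2.

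Both subunits of polymerase epsilon in the set, the enzyme of the leading strand, rose. POLE, the catalytic subunit, was at 126, 129 and 125 CPM in the control libraries and 198, 166 and 189 CPM in the GLCC1 siRNA libraries (log2 fold change 0.54, standard error 0.09, adjusted p = 3.4e-04 from edgeR), without overlap. POLE2 was at 18.0, 17.2 and 19.8 CPM in the control libraries and 21.5, 28.2 and 22.5 CPM in the GLCC1 siRNA libraries (log2 fold change 0.39, standard error 0.12, adjusted p = 0.028 from edgeR), without overlap, but was not called without control replicate 1, 2 or 3 (0.37, 0.34 and 0.45). For polymerase delta, which extends the lagging strand, POLD3 rose from 79.2 ± 2.78 to 99.0 ± 6.61 CPM (log2 fold change 0.32, adjusted p = 0.011 from edgeR, and up to 0.071 without control replicate 2 or 3), while POLD1 and POLD2 were not called, at -0.10 and -0.08. PCNA, the sliding clamp, was at 212, 194 and 218 CPM in the control libraries and 249.9, 294 and 256 CPM in the GLCC1 siRNA libraries (log2 fold change 0.36, standard error 0.09, adjusted p = 0.0067 from edgeR), without overlap, and at 163 and 209 CPM per kilobase it was among the most abundant of the set in both groups. Without control replicate 2, PCNA was not called (0.31).

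In the clamp loader RFC, RFC4 rose and RFC5 fell. RFC4 was at 75.6 ± 1.85 and 94.8 ± 2.78 CPM (log2 fold change 0.33, adjusted p = 0.0073 from edgeR). RFC5 was at 104, 105 and 102 CPM in the control libraries and 79.3, 85.6 and 78.4 CPM in the GLCC1 siRNA libraries (log2 fold change -0.35, standard error 0.08, adjusted p = 0.0045 from edgeR), and neither gene overlapped between the groups. RFC1, RFC2 and RFC3 were not called, at log2 fold changes of 0.05, -0.0024 and 0.23. The single-strand binding protein RPA had 3 of 3 subunits not called, from -0.14 for RPA2 to 0.09 for RPA1. FEN1 and LIG1, which trim and join lagging strand fragments, were not called either, at -0.05 and 0.10.

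For the 6 pairs of partner genes, the log2 ratio within each library was compared by a two-sided exact permutation test. With 3 libraries against 3, the smallest p this test can give is 0.10, so none can pass a threshold of 0.05. The difference in log2 ratio was -0.69 for CCNE1 to CCNE2, -1.21 for RRM1 to RRM2, -0.36 for POLA1 to POLA2, 0.61 for PRIM1 to PRIM2 and 0.53 for E2F1 to E2F3. These 5 had that smallest p (0.12 after Benjamini-Hochberg adjustment over the 6 pairs), and their groups did not overlap. A ratio within a library does not depend on how the library was scaled.

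Replicate 2 of the GLCC1 siRNA libraries, the smallest library, stood apart from the other 2 of its group. Whether its title number marks a different siRNA was not tested. Of its group, this library was the farthest from the middle value in 41 of the 52 genes. The same count was not made over all genes, so the 41 cannot be read as particular to the set. Over the 52 genes, its log2 deviation from the mean of its group correlated with the GC content of the transcript at r = -0.86, and over 12347 genes at r = -0.73, where the points share 1 library and its depth. The link was not confined to this library. Over the 52 genes, r was 0.71 and 0.87 in GLCC1 siRNA replicates 1 and 3, in part because the group mean is shared. In control replicates 1, 2 and 3 it was -0.56, 0.48 and 0.09. Across the 52 genes, the log2 fold change itself had r = 0.11 with GC content and r = 0.05 with log2 transcript length, points that share all 6 libraries. Without replicate 2 of the GLCC1 siRNA libraries, 26 of the 52 genes were higher and 6 lower, and the 23 calls were all kept, with ORC2 and POLA1 added among the lower and MCM2, MCM5, MCM7, CDC45, LIG1, RPA1 and CCNE2 among the higher. Calls over all genes grew as well, to 4843 higher and 5079 lower, against 3427 and 3866 with all 6 libraries. Without replicate 2 of the controls, 11 were higher and 4 lower, and ORC6, CDT1, GINS2, GINS3, POLD3, POLE2, PCNA and CDK2 were no longer called, which left 3 genes of origin licensing, 0 of helicase activation and 3 of the fork among the higher. Calls over all genes also shrank there, to 2410 higher and 2835 lower. In 13 settings, the 6 with 1 library left out among them, 14 genes were called each time, 11 higher (CDC6, GMNN, MCM3, PRIM1, POLE, RFC4, RRM2, TYMS, E2F1, E2F2 and E2F3) and 3 lower (GINS1, RFC5 and RRM1). CCNE1 was called in 9 of them, POLE2 and GINS3 in 10. The 14 called in none include ORC1, MCM6, GINS4, POLA2, PRIM2 and TK1.

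Other genes of replication and the cell cycle were taken from lists written down by role, and the genes named from them passed the test. Their counts stand against 14.9% higher and 16.8% lower among all genes, and 20.1% and 29.8% among those of at least 10 CPM. Of 24 other firing and fork factors, 5 rose (20.8%) and 4 fell (16.7%), shares near those of all genes, with a median log2 fold change of 0.05. Among them WDHD1, which ties polymerase alpha to the helicase, fell from 97.1 ± 0.864 to 55.5 ± 5.45 CPM (-0.81) and POLE3, a small subunit of polymerase epsilon, from 84.7 ± 4.52 to 52.03 ± 1.86 CPM (-0.70), while RNASEH2C, a subunit of RNase H2, rose from 19.4 ± 1.07 to 29.7 ± 0.196 CPM (0.62). POLE3 therefore went the other way from POLE and POLE2. Of 12 other enzymes of nucleotide metabolism, 4 rose and 3 fell, with a median of 0.25. SAMHD1, which degrades deoxynucleotides and is also known as an antiviral factor, rose from 64.0 ± 4.44 to 112 ± 9.48 CPM (0.81). DTYMK, which phosphorylates thymidylate, fell from 68.4 ± 0.798 to 46.4 ± 7.90 CPM (-0.55).

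Of 9 genes of chromatin assembly and maintenance, 5 rose and 1 fell, with a median of 0.34. CHAF1B, a subunit of the chromatin assembly factor, rose from 48.5 ± 1.08 to 77.6 ± 2.10 CPM (0.68) and NASP, a histone chaperone, from 321 ± 15.6 to 472 ± 46.2 CPM (0.56), whereas SLBP, which binds histone mRNA, fell from 162 ± 5.81 to 117 ± 4.12 CPM (-0.47). Of 10 genes of the replication checkpoint, 4 rose and 1 fell, with a median of 0.08. ETAA1, an activator of ATR, rose by 0.58 and the kinase WEE1 by 0.55 on the log2 scale, and HUS1, of the checkpoint clamp, fell from 21.3 ± 1.26 to 12.2 ± 0.487 CPM (-0.81). Of the 27 tested among 28 other genes of the G1/S step and the RB pathway, 9 rose and 4 fell, with a median of 0.03. The kinase inhibitor CDKN1C fell from 20.5 ± 2.63 to 3.98 ± 1.37 CPM (-2.33), and CDKN2C, an inhibitor of CDK4 and CDK6, rose from 19.1 ± 2.26 to 37.2 ± 1.94 CPM (0.96), as did RBL1, a relative of RB1, from 29.6 ± 1.33 to 49.0 ± 5.02 CPM (0.72). CDKN2A was not tested, with a mean of 0.0384 CPM in the control libraries.

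Of 26 genes of mitosis, 5 rose and 8 fell, with a median of -0.01. CDC20, the activator of the anaphase-promoting complex, fell from 240.4 ± 13.4 to 138 ± 22.8 CPM (-0.80), PTTG1, the inhibitor of separase, from 116 ± 3.26 to 72.1 ± 6.90 CPM (-0.69) and CCNB1, the cyclin of mitotic entry, from 249 ± 6.26 to 164 ± 3.50 CPM (-0.60). The 5 that rose were CCNB2, MKI67, AURKB, NDC80 and BIRC5, at log2 fold changes of 0.23 to 0.56. The share of genes higher was 19.2% in this list and 36.5% among the 52 replication genes, and the share lower 30.8% and 7.69%, a difference that was not tested. Both shares of the mitosis list were close to those of all genes of at least 10 CPM, 20.1% and 29.8%.

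**Figure D4:**
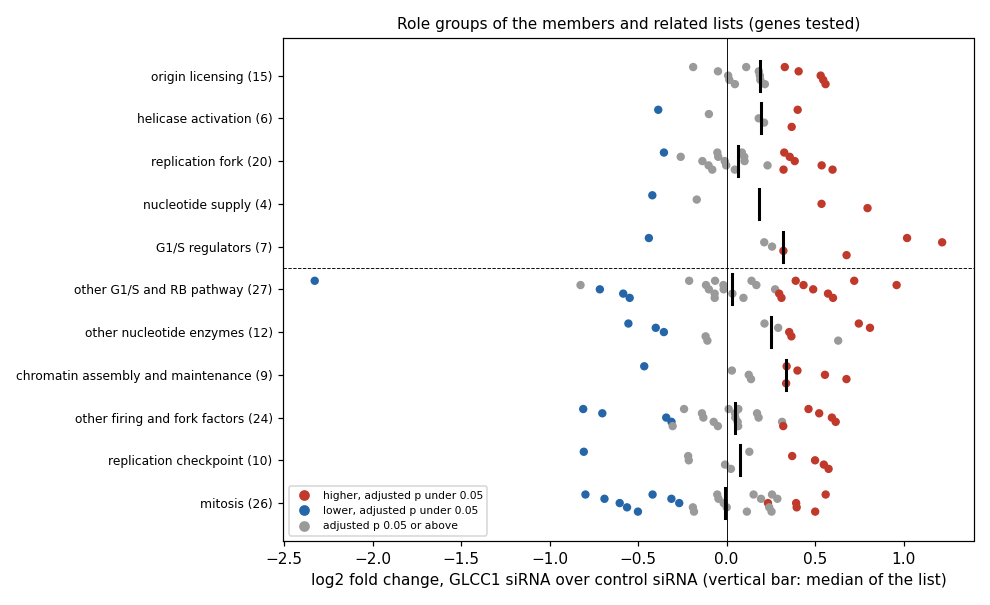
Log2 fold change (x axis) of each gene tested, by role group of the 52 genes (above the dashed line) and by related list (below it), with the number of genes in brackets, colours for the call at an adjusted p under 0.05 and a black bar for the median. The medians run from -0.01 for mitosis to 0.34 for chromatin assembly and maintenance, and each of the lists but origin licensing holds genes that fell as well as genes that rose.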

How the data were processed

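RNA sequencing of 6 libraries of a colorectal cancer cell line was used, 3 titled control siRNA and 3 titled lncRNA-AF339830 (GLCC1) siRNA. For each of 56638 gene symbols, the authors deposited the raw count of read pairs, with one file a library. Per the study's methods and the submitters' processing notes, paired-end reads were mapped to hg19 with TopHat2 2.0.11 and counted with HTSeq in union mode, which sets aside reads that overlap more than 1 gene. The annotation release and the strand setting are not given in the sources used here. All lines that tally reads not assigned to a gene were kept out of library sizes and tests. Of all read pairs tallied, 9.82% to 12.7% were on no gene and 7.30% to 7.79% were ambiguous between genes. A further 10.8% to 12.4% mapped to more than 1 place. Libraries held 11948790 to 19042516 counted read pairs, and log2 fold changes had standard errors of 0.12 for CCNE1, a gene of low level, and 0.08 for RRM2, one of high level.

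Following the study, a gene was dropped where its counts summed to under 5 in each of the conditions. The other genes were compared with TMM factors of 0.950 to 1.05 and the robust quasi-likelihood test of edgeR 4.0.16 under R 4.3.3, with Benjamini-Hochberg adjustment over all 23074 genes and a threshold of 0.05. As this test returns no standard error, it was derived as the absolute log2 fold change over the square root of the F statistic. The procedure was tested on simulated data before use. No 2 libraries were copies, with a chi-square per degree of freedom of 1.84 to 17.1 within a group. Same-numbered libraries did not deviate together (r = -0.18, -0.32 and -0.01 over 14875 genes). With 3 libraries a group, this shows no pairing by number but cannot exclude it.

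The 52 genes, the role groups, the related lists, the marker and interferon lists and the motif letters were all chosen with earlier results of these data known, and no p was computed for a list. Full values were given for up to 4 called genes a role group with the largest change and a mean of at least 10 CPM, and for the 6 fixed pairs. RFC5, TK1 and the genes of complexes were named besides, as members of the set. From each related list, up to 3 called genes with the largest change and at least 10 CPM were named, and from the mitosis list also the genes that rose. A gene that this rule would name is not reported here. Single marker genes were named after their values were seen. Positions, transcript lengths and exon overlaps are from GENCODE mapped to GRCh37, and promoters from RefSeq, GRCh38.p14, where 44 of the 52 genes had an entry. Alternatives were DESeq2 1.42.0, its size factors, library totals, filters of 1 count in any library and 10 in every library, the replicate block, an adjusted p under 0.01 and each library left out. Python 3.11.15 with numpy 2.4.6, pandas 2.3.3 and matplotlib 3.10.9 made the searches and figures.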

Additional observations from a re-analysis of the deposited data

How the results depend on the processing

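With 3 libraries a group, and a promoter entry for 44 of the 52 genes, small differences could not be told from the spread: the standard errors of the named genes were about 0.1 on the log2 scale. DESeq2, DESeq2 size factors and a filter of 1 count in any library gave the same 23 calls among the 52 genes. Asking for 10 counts in every library gave 23 higher and 4 lower, the 23 calls kept and MCM7, CDC45, RFC3 and CCNE2 added. Library totals alone gave 29 higher and 3 lower, with CCNE1 lost. An adjusted p under 0.01 gave 14 and 3, and over all genes 2175 higher in place of 3427. With 1 library left out, 11 to 26 of the 52 genes were higher and 3 to 6 lower, and over all genes 2381 to 4843 were higher and 2835 to 5079 lower, where the arm with fewer libraries is assumed to vary like the other. The replicate block, fitted although no pairing by number was seen, gave 19 higher and 4 lower, the same 23 genes, and 3008 and 3523 over all genes in place of 3427 and 3866.

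PRIM2, not called at -0.01, changed sign to 0.0068 with DESeq2, 0.0023 with DESeq2 size factors, 0.11 with library totals and 0.028 with the filter of 10 counts, and ran from -0.19 to 0.086 with 1 library left out. The difference in the log2 ratio of CDT1 to GMNN ran from -0.36 to 0.13 with 1 library left out, and was 0.13 without GLCC1 siRNA replicate 2. The cause of these changes was not tested.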
